A study of Mus musculus with 4 samples.

Results

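Chromatin accessibility was described at 8 genes that encode transcription factors of the epidermal lineage: Tfap2a, Tfap2c, Klf5, Grhl2, Bnc1, Ovol2, Ehf and Elf3. The genes were taken from a list. Peaks of the 4 libraries were merged wherever they overlapped by 1 bp, and every merged region that touched the body of a listed gene or the 50 kb on either side of it was kept. This gave 109 regions of the 82641 in the series. All positions are on mm10, with gene models from GENCODE.

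The libraries came from keratinocytes, the main cells of the epidermis, sorted from skin of female mice aged 8 to 12 weeks that had received a 5% imiquimod cream (Aldara) for 8 days. ATAC-seq, which marks open chromatin by the insertion of adapters with the Tn5 transposase, was run on 2 WT and 2 Mapk8-KO samples. In the Mapk8-KO mice the floxed gene for the kinase JNK1 had been deleted by a Cre recombinase under the keratin 14 promoter, which is active in basal keratinocytes, so the deletion was limited to cells that had used this promoter and to their progeny. The sources used here do not say whether the WT mice of these libraries carried floxed alleles, nor whether animals were pooled. The comparison asks whether accessibility at these genes differs when keratinocytes lack JNK1, a kinase that phosphorylates the AP-1 subunit c-Jun.

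Factors of this group act together in the skin. AP-2α and AP-2γ, the products of Tfap2a and Tfap2c, help to turn surface ectoderm into keratinocytes and bind palindromes of the form GCCNNNGGC. KLF5 is a zinc finger activator of proliferating epithelia, GRHL2 switches on genes of epithelial junctions, and basonuclin-1 (Bnc1) belongs to basal keratinocytes and germ cells. OVOL2 is a repressor that keeps mesenchymal genes off, while EHF and ELF3 are ETS factors of epithelia. Open distal regions near such genes are commonly bound by several of these factors and by AP-1, the dimer of Jun and Fos proteins that binds TGACTCA.

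The libraries differed in depth. In what follows, groups of 4 values always run in the order WT 1, WT 2, Mapk8-KO 1, Mapk8-KO 2. The lists held 69927, 54856, 69583 and 49856 peaks. Depth relative to WT 1, taken from the number of fragments piled up at shared summits, was 1, 0.694, 1.12 and 0.646. Replicate 2 was therefore the shallower library in each genotype. A peak lay within 1 kb of a start site for 6 or 7 of 7 keratinocyte marker genes in each library and for 0 of 7 leukocyte markers, with Krt5 the keratinocyte marker missing from WT 2 and Mapk8-KO 2. The same held for 2 of 5 melanocyte and 2 of 5 fibroblast markers in every library, and for 1 of 5 endothelial markers in all but Mapk8-KO 2, where it was 0. A peak at a start site does not say that a gene is transcribed. The genotype labels were taken as given, since the deletion of Mapk8 was not measured here.

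Of the 109 regions, 93, 72, 94 and 63 were called in the 4 libraries. These numbers followed the depth of the libraries. In WT 1, 85.3% of the member regions were called against 83.8% of all regions in the series, and in Mapk8-KO 2 the values were 57.8% and 59.1%. In all 4 libraries 55 member regions were called, or 50.5%, against 48.6% of all regions. A further 24 were called in 1 library only, but the matching share of the series was not counted, so nothing is read from this number. In bulk libraries such as these, fewer cells with an open region and less opening per cell cannot be told apart. The plot of region positions shows how they lie along each gene.

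**Figure D1:**
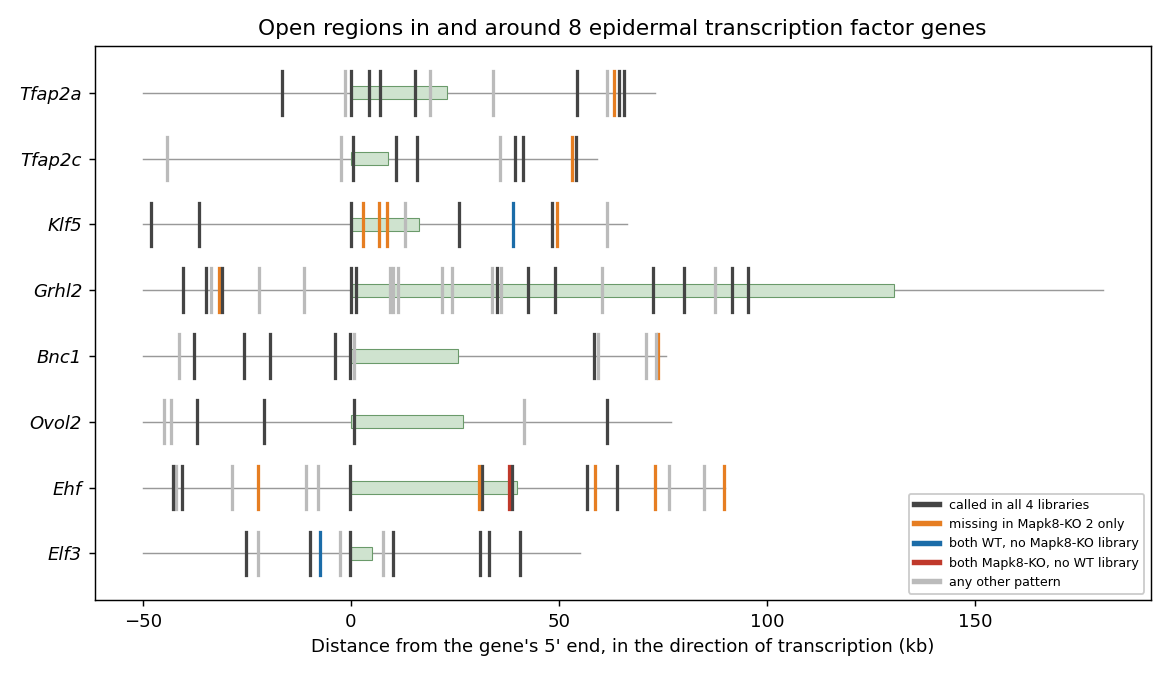
Merged open regions (vertical ticks) by distance in kb from the 5' end of each gene, in the direction of transcription; green boxes are gene bodies and grey lines the windows searched. All 8 genes have regions at or near their 5' end that were called in all 4 libraries, and Klf5 and Ehf hold most of the regions missing in Mapk8-KO 2 alone (orange).

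Most of the genes lay in dense open chromatin. Ehf had 19 regions, or 13.6 per 100 kb of its window, which placed it at percentile 96.8 among 21938 coding genes. Grhl2 had 25 regions over a longer window, or 10.8 per 100 kb. Tfap2a, Elf3, Klf5, Bnc1 and Tfap2c followed with 10.6, 10.5, 10.3, 9.55 and 9.17 regions per 100 kb. The median coding gene had 4.93, with an interquartile range of 2.13 to 8.09. Ovol2 was the exception among the 8, with 7 regions in its window, 5.51 per 100 kb and percentile 54.6. These densities count neighbouring genes as well: the nearest start site belonged to the member itself for 40 of the 109 regions, and for 0 of the 7 around Ovol2. They also count regions called in only some of the libraries. At Ehf, 7 of the 19 regions were called in all 4.

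In position the regions resembled the series. Regions within 2 kb of any start site made up 26.6% of the members' (95% Wilson interval 19.2 to 35.6, counting error only) against 26.7% of all regions. By the position of the summit, 54 member regions were intergenic and 25 lay in introns of the member itself, 16 of these in Grhl2. Grhl2 regions were spread through the long gene, with 17 in its body. Around Tfap2c, by contrast, all 10 regions were intergenic, and 9 of them had a Tfap2c start site as their nearest.

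The AP-1 letters TGACTCA, or their reverse complement, stood no further than 100 bp from the summit of 24 member regions, or 22% (15.3 to 30.7), against 23.7% of all regions. Grhl2 held 9 of these, Tfap2c and Ehf 4 each, Klf5 3, Tfap2a and Elf3 2 each, and Bnc1 and Ovol2 none. Palindromes of AP-2 (GCCNNNGGC) occurred in 11.9% of member regions and 10.2% of all. ETS letters (AGGAAGT or CGGAAGT) were present in 11.9% (7.1 to 19.3) of member regions, against 7.76%, and KLF letters (GGGNGGGG) in 10.1% (5.73 to 17.2) against 16.8%. Pairs of half-sites of the p53 family, to which the keratinocyte factor p63 belongs, were found in 13.8% (8.52 to 21.5) against 8.82%. The form AACNNGTT of grainyhead sites stood in 6.42% against 5.16%, its strict form AACCGGTT in 0 of 109 against 0.238%, and the OVOL letters CCGTTA in 1.83% against 0.995%. KLF and AP-2 letters can overlap in GC-rich sequence. A match of letters is not evidence of binding.

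The start sites of all 8 genes lay in regions called in all 4 libraries, which held for 10992 of 21911 coding gene symbols, or 50.2%. Tfap2a had 2 such regions, so there were 9 in all. Over them the median summit pileup was 60, 35, 74 and 36 fragments, close to the 58, 41, 68 and 42 of the 10275 regions over coding start sites. Their fold enrichment ranked lower, however. It is the ratio of the pileup to a local background that the peak caller takes from the coverage around the peak, with 1 added to each, and it was converted to a percentile among the 40159 regions called in all libraries. The median percentile of the 9 was 20.3, 28.3, 37.2 and 27.5 in the 4 libraries, where coding start sites had 57, 60.9, 60.6 and 67.1. The median local background was 6.9, 4.69, 8.55 and 4.2 expected fragments at the 9 regions, against 5.02, 3.31, 5.67 and 3.45.

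The Klf5 and Tfap2a start sites had high local backgrounds, as did that of Tfap2c, described below. At Klf5 (chr14:99298261-99299347) 158, 107, 196 and 137 fragments piled up, the highest pileups of the 9 regions. The local background there was 18.5, 9.77, 19.9 and 11.3 fragments. The fold percentiles were 38.9, 64.2, 52.3 and 78.8, and the genotypes overlapped. At Tfap2a, the region over the outer start site (chr13:40737763-40738778) had pileups of 39, 32, 49 and 29 over backgrounds of 11.1, 7.82, 12.5 and 8.29, and ranked at percentiles 0.496, 1.22, 1.14 and 0.374. The inner Tfap2a start site (chr13:40733763-40734088) ranked at 2.99, 2.95, 2.65 and 4.73. Klf5 thus combined the highest pileups and backgrounds of the 9 with percentiles that lay above the coding median in WT 2 and Mapk8-KO 2 and below it in the other libraries, whereas the outer Tfap2a start site had a raised background and pileups below the median coding start site.

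**Figure D2:**
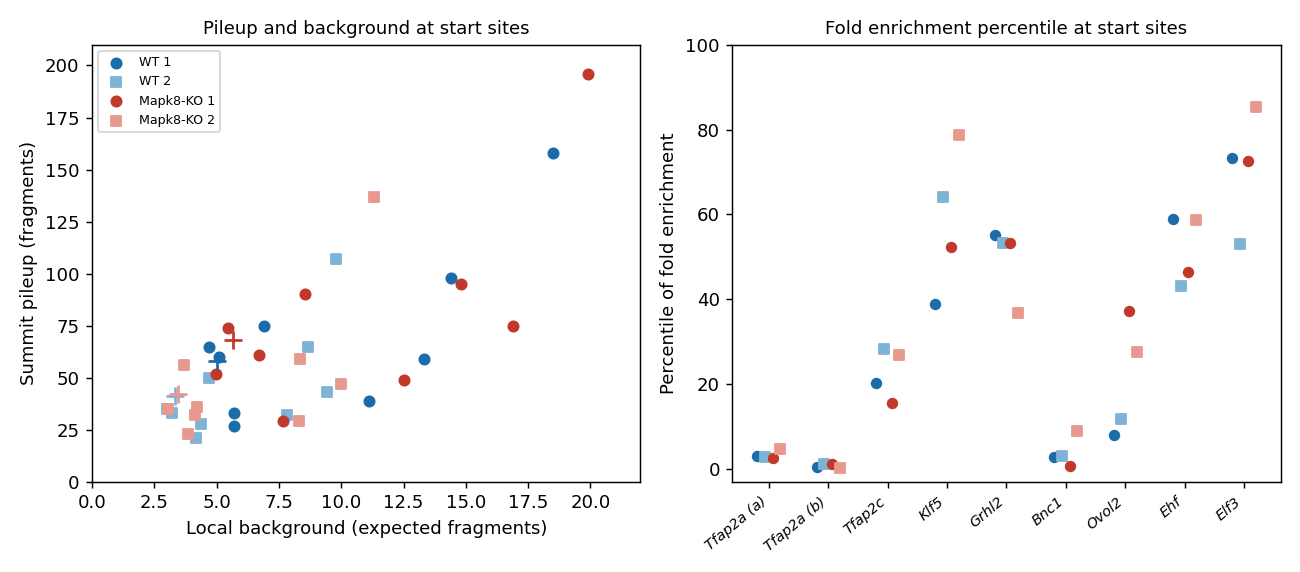
Left, summit pileup against local background, both in fragments, for the 9 regions over start sites of the 8 genes in each library; plus signs are the medians of regions over coding start sites in the same library. Right, the percentile of fold enrichment of the same regions, where Tfap2a (a) is the inner and (b) the outer start site. Klf5 has the highest pileups and Tfap2a and Bnc1 the lowest percentiles.

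The other start sites spanned the range. Tfap2c (chr2:172549052-172551064) had pileups of 98, 65, 95 and 59 over backgrounds of 14.4, 8.67, 14.8 and 8.36. Its percentiles were 20.3, 28.3, 15.6 and 27. Elf3 (chr1:135258351-135259267) had pileups of 65, 35, 74 and 56 and percentiles of 73.3, 53, 72.7 and 85.3, the highest of the 9 regions in all libraries but WT 2. Ehf (chr2:103302939-103304012) stood at percentiles 59, 43.2, 46.5 and 58.6. In each of these the WT and Mapk8-KO libraries overlapped. Grhl2 (chr15:37232532-37233426) ranked at 55.1, 53.3, 53.2 and 36.8, with Mapk8-KO 2 apart from the other libraries. Bnc1 (chr7:81992247-81992944) had the lowest pileups, 27, 21, 29 and 23, and percentiles of 2.94, 3.1, 0.726 and 8.98. The order of the start sites by percentile does not separate neighbours such as Ehf and Grhl2, whose ranges over the libraries overlapped.

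Ovol2 had the only start site among the 9 that ranked apart by 10 points or more by genotype. Its region (chr2:144330718-144332231) also holds the start of 1700108N11Rik on the other strand. Pileups were 33, 28, 61 and 32, or 33, 40.3, 54.6 and 49.5 when scaled to WT 1 by the median pileup ratio. The fold percentiles were 7.97 and 11.7 in WT and 37.2 and 27.5 in Mapk8-KO, without overlap. The shape of the calls differed too, since each WT library gave 1 peak over the region and each Mapk8-KO library gave 2. The highest summit was not at the same place in each library, and its place was split within each genotype. It lay inside the gene in WT 2 (144331023) and Mapk8-KO 1 (144330873). In WT 1 (144332182) and Mapk8-KO 2 (144332187) it lay close to the outer Ovol2 start. The second peak of Mapk8-KO 1, at 144332137, had a pileup of 38, or 34 when scaled. Next to that start site, WT 1 and Mapk8-KO 1 were thus within 1 fragment of each other after scaling, while the peak of Mapk8-KO 2 there gave 49.5. The limma test of log2 fold enrichment over all 40159 regions gave a WT minus Mapk8-KO difference of -0.50 (SE 0.22, adjusted p = 0.687).

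Away from start sites, the sequences of 4 regions that differed between genotypes in call or rank are shown first because their motif content differs. Each is the plus strand of the reference, 100 bases on either side of the strongest summit, with letters of AP-1, AP-2, GRHL, ETS or OVOL in capitals.
Grhl2 intron region, chr15:37268233-37268433: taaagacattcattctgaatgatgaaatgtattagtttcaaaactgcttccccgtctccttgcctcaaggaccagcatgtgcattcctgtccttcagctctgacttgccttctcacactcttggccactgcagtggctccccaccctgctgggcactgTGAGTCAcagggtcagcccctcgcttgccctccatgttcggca
Ehf intron region, chr2:103271617-103271817: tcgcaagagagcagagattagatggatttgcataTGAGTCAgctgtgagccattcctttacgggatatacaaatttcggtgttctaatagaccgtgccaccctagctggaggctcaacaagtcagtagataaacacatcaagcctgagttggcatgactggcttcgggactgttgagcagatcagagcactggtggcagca
Elf3 upstream region, chr1:135265952-135266152: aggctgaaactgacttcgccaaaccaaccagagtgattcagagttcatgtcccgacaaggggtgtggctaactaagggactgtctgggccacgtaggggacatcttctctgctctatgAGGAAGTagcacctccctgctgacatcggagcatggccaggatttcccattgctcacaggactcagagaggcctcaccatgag
Klf5 downstream region, chr14:99337627-99337827: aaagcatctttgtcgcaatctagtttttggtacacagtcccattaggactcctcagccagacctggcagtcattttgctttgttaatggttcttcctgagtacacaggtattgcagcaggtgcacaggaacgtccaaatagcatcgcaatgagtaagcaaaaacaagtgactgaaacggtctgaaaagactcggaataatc
In the Grhl2 and Ehf intron regions the AP-1 letters start 58 bases after and 66 bases before the summit. The Grhl2 region also has KLF and p53-family matches, which are not in capitals. The Elf3 upstream region has an ETS and a p53-family match, and the Klf5 downstream region has none of the searched letters. The Grhl2 coding exon region and the Ehf 3' UTR region described below, which are not shown, have none either.

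By call, 2 member regions were WT-specific, meaning open in each WT list but absent from the Mapk8-KO lists, or 1.83% against 2.17% of all regions. In the reverse direction 1 was Mapk8-KO-specific, or 0.917% against 1.65%. These shares were near those of the series. The WT-specific region downstream of Klf5 (chr14:99337390-99337941) lay 38573 bp after its start site and had pileups of 24 and 15 in the WT pair. The WT-specific region near Elf3 (chr1:135265936-135266139) lay 7484 bp upstream, in an exon of Gm26642, with pileups of 18 and 14. The Mapk8-KO-specific region (chr2:103265017-103265482) had its summit in the 3' UTR of Ehf, with pileups of 27 and 14 in the Mapk8-KO pair. All 3 regions had pileups below the median peak of their lists, which was 33, 28, 36 and 26 fragments, where the lowest listed was 9, 8, 10 and 8.

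By rank, 2 of the 55 regions called in every library stood at least 10 percentile points higher in both WT than in both Mapk8-KO libraries, or 3.64% against 4.65% of all regions. In the other direction there were 3, or 5.45% against 4.07%. With no minimum gap, 6 regions were higher in both WT libraries (10.9% against 17.2%) and 9 in both Mapk8-KO libraries (16.4% against 18.8%). Gaps of the 5 ranged from 15.8 to 26.5 points. Just under the threshold came a region over the Mgme1 start site near Ovol2, with a gap of 9.03 points towards Mapk8-KO, then one near Tfap2c (chr2:172590751-172591197), with 6.04 points in the same direction, and one upstream of Bnc1, with 5.82 points towards WT. The scatter of percentiles shows the remaining regions around the diagonal, with wide spreads within genotypes.

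**Figure D3:**
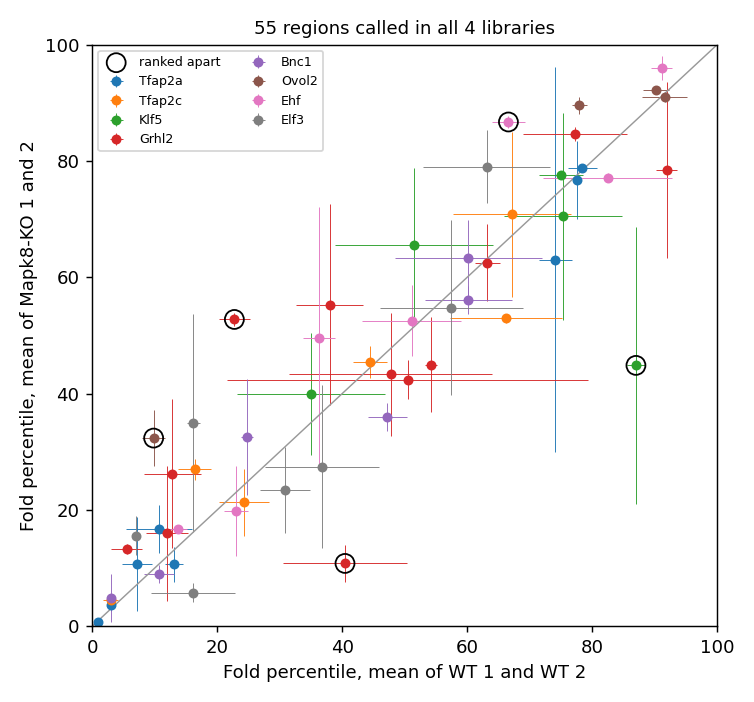
Percentile of fold enrichment of the 55 member regions called in all 4 libraries, mean of the 2 WT libraries against mean of the 2 Mapk8-KO libraries; bars span the 2 libraries, the line marks equality and open circles mark the 5 regions ranked apart by at least 10 points. The circled Grhl2 and Ehf intron regions and the Ovol2 start site lie above the line.

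In Grhl2, regions ranked apart in both directions. The intron region 35297 bp into the gene (chr15:37267964-37268456) had 31, 20, 53 and 25 fragments, or 31, 28.8, 47.5 and 38.7 after scaling to WT 1. Its percentiles of 25.2 and 20.3 in WT and 53.8 and 51.7 in Mapk8-KO gave the widest gap of the 5, 26.5 points. The limma difference was -0.48 (SE 0.20, adjusted p = 0.684). The region over a coding exon 95281 bp into Grhl2 (chr15:37328115-37328556) ranked the other way, with 40, 26, 29 and 12 fragments and percentiles of 50.4 and 30.5 in WT and 14 and 7.6 in Mapk8-KO. Its limma difference was 0.57 (SE 0.22, adjusted p = 0.634). In both regions the scaled pileups did not overlap between genotypes either.

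In Ehf, an intron region 12043 bp after its nearest start site (chr2:103271463-103271975) ranked higher in Mapk8-KO by fold and not by pileup. The percentiles were 69.3, 63.9, 85.6 and 87.8. After scaling to WT 1 the pileups were 99, 72, 94 and 102, so WT 1 fell between the Mapk8-KO libraries. The local background was 7.95 fragments in WT 1 and 6.78 in the deeper Mapk8-KO 1. The limma difference in fold was -0.35 (SE 0.16, adjusted p = 0.709).

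**Figure D4:**
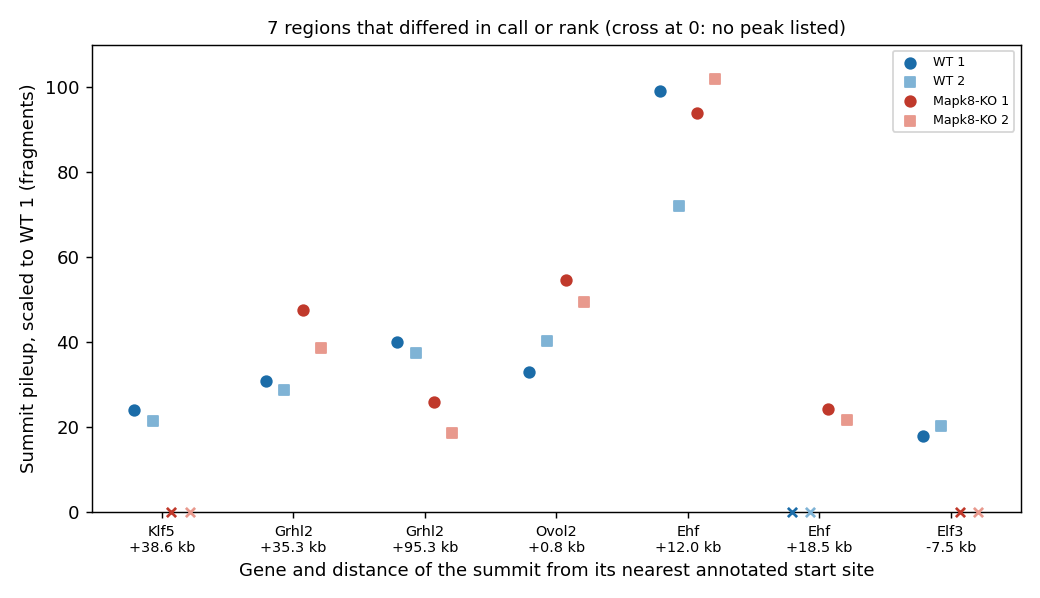
Summit pileup in fragments, scaled to WT 1 by the median pileup ratio, for 7 of the 8 member regions that differed in call or by at least 10 percentile points; the x axis gives the gene and the distance from its nearest start site. Crosses at 0 mark libraries whose list holds no peak there, which is not a measured 0. The genotypes overlap at the Ehf intron region (+12.0 kb), where WT 1 sits at 99 between 94 and 102.

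No region passed the limma test. Of the 40159 regions, 0 had an adjusted p below 0.05, which is 0% of the series and 0 of the 55 member regions. At an unadjusted p below 0.05 there were 2731 regions, or 6.8%, and 5 of the 55 member regions, or 9.09%. These 5 were the same 5 that ranked apart. With the summit pileup in place of fold, limma called 243 regions of the series and again 0 of the members, whose lowest adjusted p was 0.0502. Without Mapk8-KO 1, where the single remaining Mapk8-KO library is assumed to vary like the WT pair, limma called 812 regions, 1 of them a member. Since the samples were 2 against 2, p-values measure the spread between these libraries, and the labels do not say more of their origin than that they were separate samples. The study itself tested reads per region over its whole atlas with DESeq2 and reported regions that differed in both directions. That measure and set of regions are unlike the fold ratio and shared regions tested here. The 0 calls here thus do not say that accessibility was equal.

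The mean percentile of the 55 member regions was 45.1, 42, 44.3 and 45.1. The means of 43.5 ± 2.21 in WT and 44.7 ± 0.594 in Mapk8-KO (SD, n = 2 each) differed by -1.15 points, with a two-sided exact permutation p of 0.667. With 2 libraries a group, this test cannot give a p below 0.33. The median percentile over the 55 regions was 45.9, 34.8, 39.8 and 45.7, where all regions have about 50 by construction. By gene, WT minus Mapk8-KO was 0.497 for Tfap2a, -0.0344 for Tfap2c, -1.19 for Grhl2, 0.714 for Bnc1 and -1.9 for Elf3, each smaller than the SD of at least 1 group. Klf5 was 5.12 points higher in WT, with library means of 57, 72.6, 63.2 and 56.1, which overlap. In an alternative chosen after seeing the data, leaving out 1 of its 5 regions in turn moved this difference between -4.14 and 9.91 points, so its direction rested on 1 region. For Ehf the difference was -4.84 points, also with overlap. Ovol2 alone separated, with 68.6 and 66.2 in WT and 77.5 and 75.1 in Mapk8-KO over 4 regions, an exact permutation p of 0.33, the smallest possible. These 4 include the Ovol2 start site that ranked apart and the regions over the Mgme1 and Kat14 start sites. Leaving out 1 region in turn, also chosen after seeing the data, moved the Ovol2 difference of -8.88 points between -12 and -4.35. How many coding genes separate in this way was not counted.

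The commonest pattern after a call in all libraries was a call in every library but Mapk8-KO 2, the shallowest. It took in 13 member regions, or 11.9%, against 9.91% of all regions. Ehf had 5 of them and Klf5 4. At Klf5, 3 lay inside the gene, 2481, 6371 and 8440 bp after its start. The one in a coding exon (chr14:99301474-99301814) had 82, 31 and 67 fragments in the other 3 libraries over backgrounds of 19.2, 10.1 and 20.3, and its folds of 4.11, 2.87 and 3.19 put it at percentiles 9.46, 0.219 and 2.19 of all peaks in those lists. The intron regions had 33, 17 and 37 (chr14:99305263-99305664) and 35, 23 and 26 fragments (chr14:99307238-99307705) in the same libraries. The adjacent start site stood at percentile 78.8 in Mapk8-KO 2, its highest value in any library. Mapk8-KO 1 had all 3 regions, so the Mapk8-KO pair was split here and the genotypes did not separate. The part of the lower depth of Mapk8-KO 2 in these missing calls was not tested.

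Each gene also had distal regions that were open throughout. Of the top distal regions of the 8 genes, the 3 shown were chosen for their letters. They carry the AP-1 letters and, in the same window, letters of a family to which other members belong. The top regions of Elf3 and Tfap2c have the AP-1 letters without grainyhead or ETS letters. That of Bnc1 has ETS letters only, and those of Grhl2 and Ovol2 have none of these. The share of all distal regions with such pairs was not counted.
Tfap2a distal region, chr13:40683875-40684075: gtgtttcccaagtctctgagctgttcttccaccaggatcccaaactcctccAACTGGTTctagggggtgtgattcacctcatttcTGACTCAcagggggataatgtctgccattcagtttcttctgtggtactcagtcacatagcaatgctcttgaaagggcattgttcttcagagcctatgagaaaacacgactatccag
Klf5 distal region, chr14:99324606-99324806: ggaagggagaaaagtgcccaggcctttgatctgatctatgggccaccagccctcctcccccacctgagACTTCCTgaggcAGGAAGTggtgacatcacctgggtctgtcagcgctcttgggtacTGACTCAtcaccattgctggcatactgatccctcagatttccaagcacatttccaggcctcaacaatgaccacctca
Ehf distal region, chr2:103239165-103239365: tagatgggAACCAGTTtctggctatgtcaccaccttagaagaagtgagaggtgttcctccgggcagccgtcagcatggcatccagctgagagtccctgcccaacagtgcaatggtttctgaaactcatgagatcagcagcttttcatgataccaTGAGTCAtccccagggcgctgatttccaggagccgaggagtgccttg
In the Tfap2a region the AP-1 letters start 15 bases before the summit and a grainyhead match 49 bases before it. The Klf5 region has 2 ETS matches, on opposite strands, starting 32 and 20 bases before the summit, and the AP-1 letters 24 bases after it. In the Ehf region the AP-1 letters lie 54 bases after the summit and a grainyhead match 92 bases before it.

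The region near Ehf (chr2:103238986-103239489), 44495 bp from its nearest start site, had the highest mean percentile over the 4 libraries of all distal member regions. It had 68, 55, 95 and 54 fragments and percentiles of 89.4, 92.8, 98.1 and 94. The Mapk8-KO values were the higher ones, by 1.16 points. A region 20804 bp upstream of Ovol2 (chr2:144352580-144353305) stood at 95.2, 88, 91.8 and 90.2, with no AP-1 letters near its summit. The Klf5 region 25552 bp after its start (chr14:99324411-99324980) ranked evenly, at 71.5, 78.6, 77.6 and 77.5. These regions varied little between libraries.

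Elsewhere the top distal region varied more between libraries. In Grhl2 (chr15:37281774-37282226, an intron) the percentiles were 90.2, 93.6, 93.5 and 63.4. Near Tfap2a (chr13:40683773-40684174) they were 76.7, 71.5, 96.2 and 29.9, with pileups of 44, 38.9, 52.8 and 24.8 after scaling to WT 1. In both genes Mapk8-KO 2 was the low library. The top regions of Tfap2c (chr2:172603468-172603930) at 76.6, 57.7, 56.6 and 85, of Bnc1 (chr7:82017052-82018657) at 48.4, 72, 57 and 69.8, and of Elf3 (chr1:135268233-135268738) at 45.9, 27.6, 41.5 and 13.4 overlapped between genotypes.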

How the data were processed

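The authors trimmed and mapped the paired reads to mm10 (Bowtie2 per the methods; Trimmomatic 0.36 and STAR 2.5.3 also stand in the submitters' processing notes) and called peaks per library with MACS2, without a control and without pooling. Mitochondrial reads had been taken out, per the peak names. A shift for the Tn5 insertion is not given in the sources used here. The deposited lists give a score made from q, the fold of summit pileup over local background (a ratio), −log10 p and −log10 q values, and how far the summit lies from the start of its peak. The highest q in any list was 0.0097. No read total is given, so shares carry counting error only.

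Peaks were merged at 1 bp overlap, and regions were assigned to the 8 genes with 50 kb flanks (GENCODE M21 basic, GRCm38). Sequences were read from the RefSeq copy of that assembly. Fold and −log10 p together give the summit pileup and the local background: in the list with the fewest, 99.996% of pileups came out whole within 0.05. Depth is the median pileup ratio to WT 1. Groups were compared by exact permutation tests and by limma 3.58.1 in R 4.3.3 (log2 fold, median centred, variance trend, Benjamini-Hochberg). Both the pileup recovery and limma were tested on simulated data. Read counts were not used here.

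The members and lists were chosen with earlier results of these data known. Named regions were those over each gene's start sites, its top-ranked distal region called in all libraries, and the regions that differed by call or by 10 percentile points, of which 1 is not reported here. Alternatives covered q, overlap, list length, flank, measure, rank gap, motif window, the replicate block and each library left out.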

Additional observations from a re-analysis of the deposited data

How the results depend on the processing

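Of 103 alternative values for 9 results, 68 kept their direction and side of the threshold, or stayed within 1.5 times for counts and within the interval for shares. With a flank of 10 kb there were 50 member regions, 1 of them WT-specific and 1 ranked higher in WT. With 100 kb there were 175, of which 2 were Mapk8-KO-specific, 4 ranked above in WT and 6 in Mapk8-KO, and the mean percentile difference reversed to 0.504. Regions whose nearest start site belongs to a member numbered 40, with 1 WT-specific, and by rank 0 stood higher in WT and 1 in Mapk8-KO. These alternatives count other regions by construction. A cover of 50% of the region left 1 WT-specific region and 1 ranked higher in WT. Lists of equal length gave 2 Mapk8-KO-specific regions. A rank gap of 5 points gave 5 regions higher in Mapk8-KO. A gap of 20 points gave 0 in WT and 1 in Mapk8-KO. Within 50 bp of the summit, 14.7% of member regions held the AP-1 letters. With the summit pileup, limma called 243 regions; the cause was not tested.

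Leaving out 1 library in turn gave 98 to 109 member regions, 2 to 15 WT-specific and 1 to 13 Mapk8-KO-specific regions, 2 to 8 ranking above in WT, 4 to 12 in Mapk8-KO, and AP-1 shares of 21.2% to 24.5%. With 3 libraries these rules ask less of a region. The WT-specific regions were 12 without WT 2 and 15 without Mapk8-KO 1. The Mapk8-KO-specific regions were 5 without WT 1, 3 without Mapk8-KO 1 and 13 without Mapk8-KO 2. Those ranked higher in WT were 7 without WT 2 and 8 without Mapk8-KO 1. Those higher in Mapk8-KO were 8 without WT 1, 12 without Mapk8-KO 1 and 6 without Mapk8-KO 2. The mean percentile difference ran from -2.68 to 0.236, reversing without WT 2. The limma calls ran from 0 to 812 in the series (812 without Mapk8-KO 1, 4 without Mapk8-KO 2 and 1 without WT 1) and from 0 to 1 among members, the 1 without Mapk8-KO 1.

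The replicate numbers were tried as a block. Deviations of same-numbered libraries correlated at r = 0.102 over 40159 regions, and with 2 pairs this does not establish a pairing. With the replicate block 3 member regions stood higher in WT, 4 stood higher in Mapk8-KO, the mean difference was -1.15, and 0 regions passed limma (3498 at an unadjusted p below 0.05). A region missing from a list is not shown to be closed.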

Other observations

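Relatives of the 8 genes and other factors of the epidermis were read in the same way. Of 11 further genes of the same families, 7 had a start site called in all 4 libraries, against 50.2% of coding gene symbols: Tfap2b, Tfap2e, Klf4, Grhl1, Grhl3, Bnc2 and Ovol1. Start sites of Tfap2d, Ovol3 and Spdef were called in 0 libraries and that of Elf5 in 2. Among 10 other epidermal factors 9 had their start site called in all 4, including Trp63, the gene of the keratinocyte factor p63, and Gata3. The exception was Zfp750, called in 3. The family genes had 135 regions, of which 66 were called in all libraries, 3 were WT-specific, 1 was Mapk8-KO-specific, 2 stood higher in WT and 4 stood higher in Mapk8-KO by rank. The other epidermal factors had 159 regions, with 79, 5, 1, 2 and 1 in the same order. The AP-1 letters stood in 19.3% of the family regions and 22% of those of the other factors.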
